A study of Mus musculus with 8 samples.

Results

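The 10 genes described here, Sesn1, Sesn2, Ddit4, Ddit4l, Trp53inp1, Tigar, Slc19a2, Ephx1, Ak1 and Gdf15, are reported p53 targets that act on metabolism, on the growth kinase mTOR and on autophagy. They were chosen by symbol, through the RefSeq accession that the array gives each probe. They make up 10 of the 20145 genes named on the array and 13 of its 55681 probes. All 10 genes and all 13 probes passed the filter on dim signals, which required a signal well above background on at least 4 of 8 arrays and left 14631 named genes. Trp53inp1, Tigar and Ephx1 had 2 probes each and the other 7 genes had 1.

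The hydroxyurea embryos came from CD-1 dams that had been injected into the peritoneum with hydroxyurea at 400 mg/kg on gestational day 9. The saline embryos came from CD-1 dams given saline on the same day, and both groups were collected 3 h after the injection. Total RNA of whole embryos, 4 samples for each condition, was read on 1-colour arrays. CD-1 is an outbred stock, no genotype other than the strain is given for either group, and the sources used here do not say how many embryos or dams each RNA came from. The labels speak of 4 independent experiments, but not of which samples shared one, so a p-value here rests on the spread among the RNA samples alone. Whole embryos are a mixture, so fewer cells of a type and less RNA per cell cannot be told apart. The 75th percentile of the scanner signal was 249.4 to 479.9 on the hydroxyurea arrays and 301.6 to 516.3 on the saline arrays. Over all features 1429 passed the test used below, and 3739 without hydroxyurea 2. Results without that array are therefore given for some genes. Counts for the gene lists below were not made without it.

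The transcription factor p53 is stabilised when DNA is damaged or replication stalls, and it switches on genes of arrest, death and repair together with genes that change how a cell uses nutrients. Sestrins and the DDIT4 proteins lower the activity of mTOR complex 1, which drives protein synthesis and holds back autophagy. TIGAR slows glycolysis and favours the pentose phosphate pathway, which supplies NADPH and ribose for nucleotides. Hydroxyurea inhibits ribonucleotide reductase and so deprives S-phase cells of deoxyribonucleotides.

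After hydroxyurea 7 of the 10 genes rose, 0 fell and 3 did not pass the limma test, and at an unadjusted p of 0.05 there were also 0 lower. Ddit4l and Trp53inp1 rose about 10.3-fold and 9.36-fold, and Slc19a2 5.2-fold. Gdf15 passed at 4.25-fold, but only 1 of its 4 saline arrays was well above background, so that fold is not well measured, and with another background correction (normexp) its log2 difference was 0.57 in place of 2.09 and did not pass (adjusted p = 0.063). Ddit4 and Sesn2 rose 2.95-fold and 2.84-fold and Ak1 2.07-fold. Sesn1, Tigar and the brighter Ephx1 probe did not pass. A gene passed where its adjusted p from the limma fit over all features was under 0.05. Among all named genes 3.64% were higher and 2.03% were lower by that rule. At an unadjusted p of 0.05, 15.6% of them were higher and 8.45% lower. The median log2 difference was 1.53 over the 10 genes and 0.1 over the named genes.

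The letters upstream of 4 of these genes are shown because they form 2 pairs of close relatives whose responses differed in size. Each run is the 250 bases before the RefSeq transcript start in assembly GRCm38.p6, read 5′ to 3′ on the gene's own strand. Capitals mark a match to the p53 half-site, the 10-base consensus that p53 binds in pairs.
Ddit4l (chr3:137623422-137623671, plus strand): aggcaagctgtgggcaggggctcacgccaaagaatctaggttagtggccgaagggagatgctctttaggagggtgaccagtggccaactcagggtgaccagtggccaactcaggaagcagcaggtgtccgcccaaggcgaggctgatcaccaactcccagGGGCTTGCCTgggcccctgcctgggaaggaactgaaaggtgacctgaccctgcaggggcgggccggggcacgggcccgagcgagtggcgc
Ddit4 (chr10:59951771-59952020, minus strand): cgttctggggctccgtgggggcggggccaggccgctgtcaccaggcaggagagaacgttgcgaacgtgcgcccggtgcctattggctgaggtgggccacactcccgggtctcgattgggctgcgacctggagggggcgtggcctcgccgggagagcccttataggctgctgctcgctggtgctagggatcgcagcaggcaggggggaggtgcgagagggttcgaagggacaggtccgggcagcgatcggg
Sesn2 (chr4:132510457-132510706, minus strand): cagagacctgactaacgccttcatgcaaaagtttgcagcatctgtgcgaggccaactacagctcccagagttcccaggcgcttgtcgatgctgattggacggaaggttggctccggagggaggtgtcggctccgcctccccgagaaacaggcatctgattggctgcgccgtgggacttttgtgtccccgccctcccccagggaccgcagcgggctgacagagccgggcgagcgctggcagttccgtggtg
Sesn1 (chr10:41887189-41887438, plus strand): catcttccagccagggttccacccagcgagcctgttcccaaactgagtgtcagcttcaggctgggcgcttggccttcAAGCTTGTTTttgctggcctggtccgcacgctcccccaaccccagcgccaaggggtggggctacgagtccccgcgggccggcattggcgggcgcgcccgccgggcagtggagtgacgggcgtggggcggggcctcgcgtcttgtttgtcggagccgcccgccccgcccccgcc

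The half-site consensus reads the same on both strands, so 1 search covered both. It stood in 2 of the 14 windows, each from 250 bases before to 50 after a start, that RefSeq gives for 9 of the 10 genes. These were the single Ddit4l window, where the match GGGCTTGCCT began 90 bases before the start, and the downstream of the 2 Sesn1 windows, where AAGCTTGTTT began 173 bases before it. Of all 32851 windows in the table, 8.36% held at least 1 half-site. The complete site, 2 half-sites with at most 13 bases between them, stood in 0 of the 14 windows and in 0.0731% of all. The motif TGATGNAA, searched on both strands as the core of the element bound by the stress factor ATF4, stood in 0 of the 14 and in 3.97% of all. Any half-site inside a complete site counted under both. A match is a run of letters and not a shown binding site. Trp53inp1 had no window in the table.

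All levels below are log2 signals relative to the 75th percentile of the same array, so 0 means as bright as that percentile. Arrays are given in the order of their replicate numbers. The labels give no such numbers, so they were assigned here in sample order, and equal numbers do not mark a shared experiment. Levels of different probes are not comparable with each other. Differences are hydroxyurea minus saline on the log2 scale, with the SE of the limma fit and 4 arrays per group.

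Ddit4l (NM_030143) encodes REDD2, which like its relative REDD1 restrains mTOR complex 1 through the TSC1 and TSC2 complex. It stood at 1.44, 1.17, 0.5 and 1.45 on the hydroxyurea arrays, against -2.33, -2.21, -2.25 and -2.11 on the saline arrays. The saline arrays lay within a narrow band below the 75th percentile and every hydroxyurea array lay above it, with hydroxyurea 3 the lowest. The difference was 3.37 ± 0.22 (SE, adjusted p = 8.7e-05), the 13th highest of 23121 features. With normexp, which corrects the background by a model and compresses dim signals, it was 2.67 and still passed.

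Ddit4 (NM_029083), which encodes REDD1, is a textbook target of p53 and is also induced by low oxygen and by glucocorticoids. Its signal was 6.1, 5.7, 5.47 and 6.19 in hydroxyurea embryos, against 4.45, 4.26, 4.25 and 4.26 in saline embryos. The groups did not overlap, and 3 of the saline arrays lay together at 4.25 to 4.26. Ddit4 rose by 1.56 ± 0.19 (SE, adjusted p = 0.0023).

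Sesn2 (NM_144907) encodes a sestrin that senses leucine and acts on mTOR complex 1 through the GATOR complexes. It reached 3.33, 3.88, 3.4 and 3.74 on the hydroxyurea arrays, against 1.98, 2.06, 2.25 and 2.03 on the saline arrays. No hydroxyurea value came near the saline range, and the gene rose by 1.5 ± 0.17 (SE, adjusted p = 0.0017). Sesn1, the sestrin gene first found as a p53 target, read 1.46, 0.99, 1.38 and 1.56 in hydroxyurea embryos, against 0.89, 0.81, 0.89 and 1.06 in saline embryos. Here hydroxyurea 2 lay inside the saline range while the other hydroxyurea arrays lay above it. The difference of 0.44 ± 0.16 did not pass (adjusted p = 0.14, 95% interval 0.07 to 0.8), and without hydroxyurea 2 it was 0.55 and passed (adjusted p = 0.027). The Sesn1 probe carries the accession NM_001162908, 1 of 2 RefSeq transcripts of the gene, and the other transcript has no value of its own here.

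Trp53inp1 (NM_021897) encodes a stress-induced nuclear protein that can bind LC3-family proteins and promotes autophagy and cell death. Its brighter probe read 3.31, 3.16, 3.19 and 3.62 on the hydroxyurea arrays, against -0.19, 0.16, 0.06 and 0.34 on the saline arrays. Its dimmer probe, of the same accession, read -0.91, -0.3, -1.11 and -1.17 in hydroxyurea embryos, against -2.8, -3.05, -3.26 and -3.09 in saline embryos. Both probes separated the groups completely. The brighter one rose by 3.23 ± 0.17 (SE, adjusted p = 4.4e-05) and ranked 24th of 23121. The dimmer one rose by 2.18 ± 0.22 in a fit with every probe as its own feature (adjusted p = 0.0012), in which 2.53% of 30677 probes were higher. The array order also differed between the probes, with hydroxyurea 4 the highest on the brighter and the lowest of its group on the dimmer.

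Tigar (NM_177003) encodes a phosphatase of fructose 2,6-bisphosphate, the activator of phosphofructokinase. On the brighter probe it stood at 2.25, 1.24, 1.54 and 1.66 in hydroxyurea embryos, against 0.89, 1.47, 0.9 and 1.26 in saline embryos. The dimmer probe gave -0.36, -1.42, -0.61 and -0.62 with hydroxyurea, against -1.16, -0.96, -1.28 and -1.11 with saline. On both probes hydroxyurea 2 was the lowest array of its group and the groups overlapped. The differences of 0.54 ± 0.24 (adjusted p = 0.2, 95% interval 0.01 to 1.08) and 0.37 ± 0.23 (adjusted p = 0.35 among probes) did not pass, and the first was 0.69 without hydroxyurea 2, still not past the test (adjusted p = 0.079).

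Slc19a2 (NM_054087) encodes the high-affinity thiamine transporter, and thiamine in its active form is the cofactor of transketolase in the pentose phosphate pathway. It read 3.15, 2.38, 2.27 and 3.01 in hydroxyurea embryos, against -0.07, 0.37, 0.25 and 0.75 in saline embryos. The lowest hydroxyurea array stood well above the highest saline array. The rise was 2.38 ± 0.25 (SE, adjusted p = 0.0014).

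Ak1 encodes a cytosolic adenylate kinase, which balances ATP, ADP and AMP and thereby the AMP signal read by AMPK. It stood at 3.84, 3.25, 3.64 and 3.7 on the hydroxyurea arrays, against 2.33, 2.8, 2.73 and 2.37 on the saline arrays. Hydroxyurea 2 came closest to the saline range without entering it. The gene rose by 1.05 ± 0.18 (SE, adjusted p = 0.013). The probe carries NM_001198790, 1 of several RefSeq transcripts of Ak1.

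Ephx1 (NM_010145) encodes microsomal epoxide hydrolase, an enzyme that detoxifies reactive epoxides, and its 2 probes disagreed although they carry the same accession. The brighter probe read -0.94, -0.52, -0.6 and -1.21 in hydroxyurea embryos, against -0.35, 0, -0.57 and -0.57 in saline embryos. The other read -0.42, -1.13, -1.01 and -0.55 with hydroxyurea, against -2.11, -2.28, -2.18 and -2.13 with saline. On the first the groups overlapped, and on the second every hydroxyurea array was the higher. The first gave -0.44 ± 0.21 (SE, adjusted p = 0.22) and the second 1.4 ± 0.19 (adjusted p = 0.0042 among probes), and the mean of both probes gave 0.48 (adjusted p = 0.063). The direction of Ephx1 thus depended on the probe, and which transcript each probe reads was not tested.

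Gdf15 (NM_011819) encodes a secreted stress cytokine of the TGF-beta superfamily. Its only probe was dim on every array, at -3.42, -3.8, -4.23 and -2.69 on the hydroxyurea arrays, against -6.6, -4.65, -5.63 and -5.59 on the saline arrays. It was well above background on 3 of 4 hydroxyurea arrays (not on hydroxyurea 3) and on 1 of 4 saline arrays (saline 2), the least that the filter allows, so it passed largely through the group in which it was high. The groups did not overlap, and the difference was 2.09 ± 0.43 (SE, adjusted p = 0.024). The call was lost with normexp, with no filter on dim signals (adjusted p = 0.066), and without hydroxyurea 1 (adjusted p = 0.074), hydroxyurea 4 (0.068), saline 1 (0.052), saline 3 (0.066) or saline 4 (0.058).

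**Figure D1:**
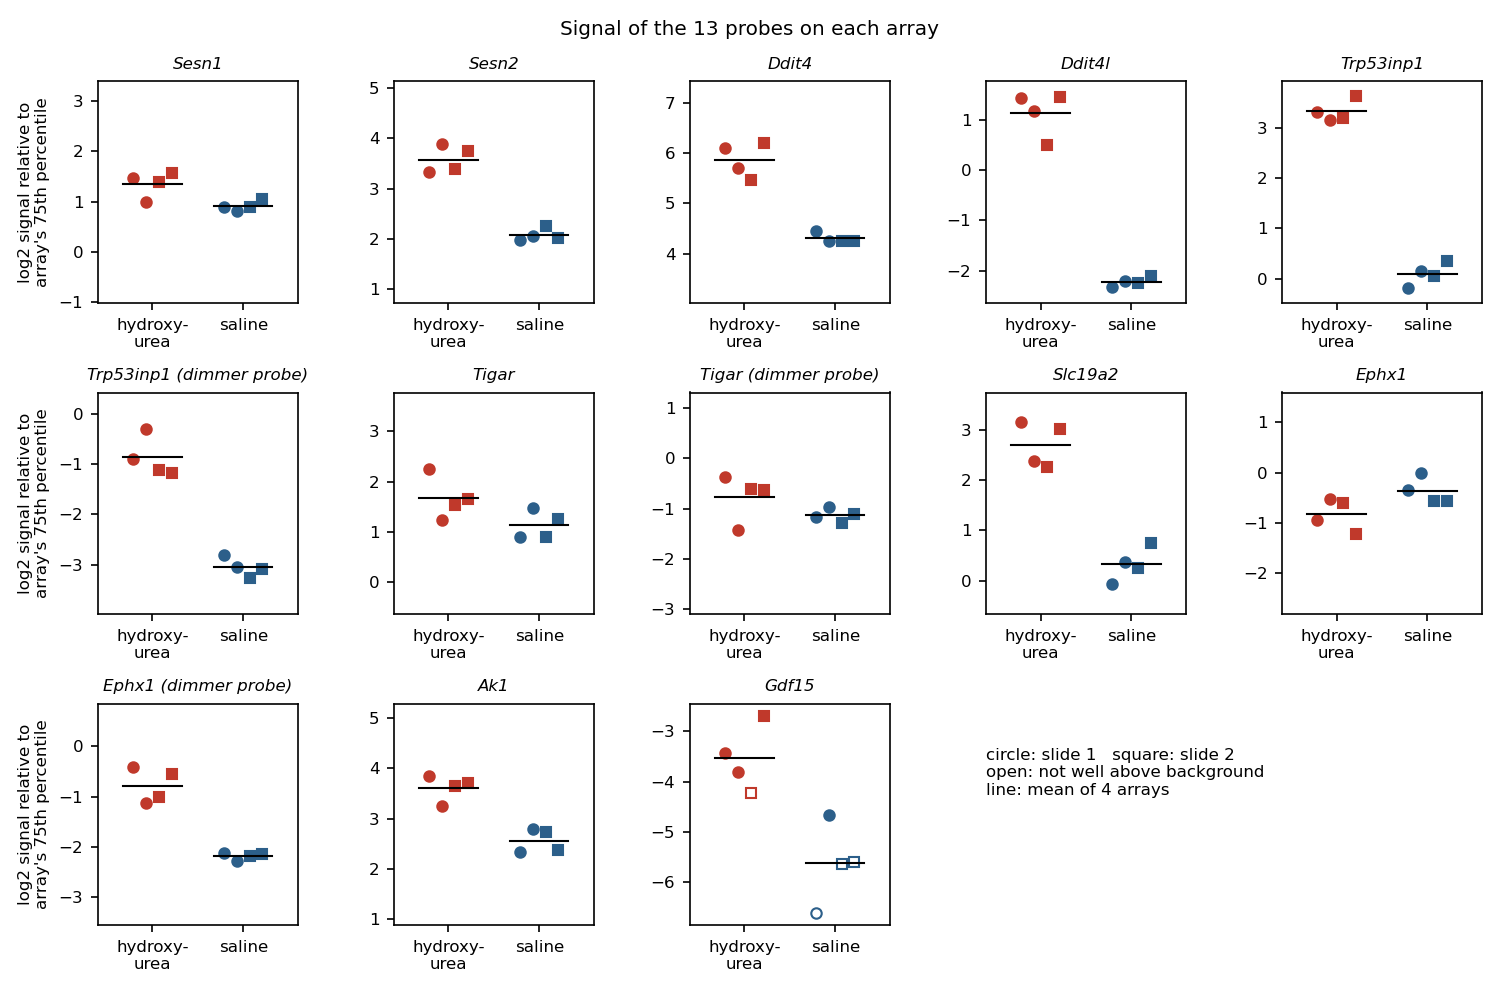
Log2 signal relative to the array's 75th percentile for the 13 probes of the 10 genes, with hydroxyurea arrays on the left and saline arrays on the right of each panel. Circles are slide 1, squares slide 2, open symbols are not well above background and lines are means of 4 arrays. Ddit4l, Trp53inp1 and Slc19a2 show the widest gaps between groups, and the Gdf15 panel holds 4 open symbols.

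Across the 10 genes, each by its brightest probe, 7 had every hydroxyurea array above every saline array, where 10.2% of the named genes did, and these were the genes that passed. They include Gdf15, whose saline values lay mostly at background, and with a filter that asks for all 8 arrays, which Gdf15 does not pass, 6 genes were called. Within the hydroxyurea group the arrays kept a loose order over those 7 genes. Hydroxyurea 4 was above the group mean for 7 of 7 and the highest array for 4, with a mean deviation of 0.33. Hydroxyurea 3 was the lowest for 4 of 7, with a mean deviation of -0.35. Within the saline group saline 1 was the lowest for 6 of 7 (mean deviation -0.28). The dim gene Gdf15 weighs on these means. It gave the largest single deviations of saline 1 (-0.98), hydroxyurea 3 (-0.7) and hydroxyurea 4 (0.85). Hydroxyurea 3 also had the lowest share of spots well above background, 48.7%, and saline 1 the highest, 62.3%. Their part in these orders was not tested. Leaving out hydroxyurea 3 moved the differences of Ddit4l to 3.58 and of Ddit4 to 1.69, and leaving out saline 1 moved that of Gdf15 to 1.76.

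**Figure D2:**
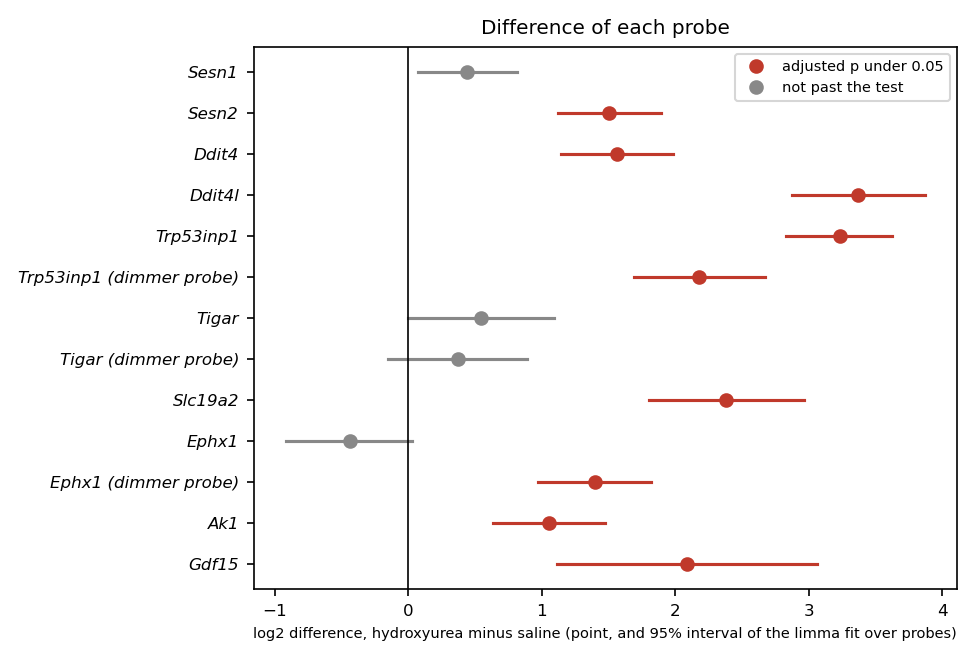
Log2 difference, hydroxyurea minus saline, for each of the 13 probes with the 95% interval of the limma fit over probes. Red points passed an adjusted p of 0.05 and grey points did not. The brighter Ephx1 probe lies at -0.44 and the dimmer at 1.4.

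Both conditions were split evenly over 2 slides, 2 arrays each, and the slides were scanned at 3 and 5 micrometres. Differences within slide 1 and slide 2 were 3.58 and 3.15 for Ddit4l, 3.25 and 3.2 for Trp53inp1, and 2.61 and 2.14 for Slc19a2. They were 2.02 and 2.15 for Gdf15, 1.54 and 1.57 for Ddit4, 1.58 and 1.43 for Sesn2, and 0.98 and 1.12 for Ak1. Sesn1 gave 0.38 and 0.49, Tigar 0.57 and 0.52, and the brighter Ephx1 probe -0.56 and -0.33. Each gene thus had the same sign on both slides. The limma test of whether the difference itself changed between the slides gave an adjusted p of 1 for each of the 10 genes, and 0 of 23121 features passed it (0%). At an unadjusted p of 0.05 it took 218 features (0.943%), none of them among the 10 genes. With 2 arrays per group on a slide this test has little power, so it does not show that the slides gave equal differences. With the slide as a block the same 7 genes passed, with adjusted p from 0.00025 for Trp53inp1 to 0.042 for Gdf15.

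The next comparison asked whether a gene and a chosen relative that passed the filter responded alike. For each array the log2 signal of the relative was subtracted, and the groups were compared with an exact two-sided permutation test over the 8 arrays, adjusted over 7 pairs. With 4 arrays against 4 the smallest possible p is 0.0286. The response differed in 5 of the 6 pairs described here, with each gene taken by its brightest probe. Each of these 5 had an exact p = 0.0286 and an adjusted p of 0.0333. Without any 1 array the smallest adjusted p that could be reached was 0.0667, so these calls cannot be made with fewer arrays.

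Between the sestrins, Sesn2 minus Sesn1 was 1.87 to 2.88 on the hydroxyurea arrays and 0.97 to 1.36 on the saline arrays. Sesn2 thus changed by 1.07 more than Sesn1, or by 0.85 more without hydroxyurea 2. Sesn1 minus Sesn3 was 0.68 to 1.19 with hydroxyurea and -0.52 to 0.34 with saline, a difference of 0.94. Sesn3, a sestrin gene driven mainly by FOXO factors, itself had a log2 difference of -0.51 ± 0.21 (SE, adjusted p = 0.17). The 3 sestrin genes thus lay in the order Sesn2, Sesn1, Sesn3 by their difference, and both steps of that order were tested.

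Ddit4l minus Ddit4 was -4.98 to -4.53 with hydroxyurea and -6.78 to -6.37 with saline, so that Ddit4l changed by 1.81 more, or by 1.11 more with normexp. Trp53inp1 minus Trp53inp2 was 0.46 to 0.78 on the hydroxyurea arrays and -2.45 to -2.02 on the saline arrays, a difference of 2.92. Trp53inp2, whose product also binds LC3-family proteins, had a difference of 0.3 ± 0.18 (SE, adjusted p = 0.33). The thiamine transporter Slc19a2 changed by 2.14 more than Slc19a1, the reduced folate carrier gene (0.24 ± 0.14, adjusted p = 0.33, with -0.47 on its other probe). Slc19a3, of the same family, did not pass the filter on dim signals and could not be compared. For the brighter Ephx1 probe and Ephx2, the soluble epoxide hydrolase gene, the difference was -0.39 (exact p = 0.229, adjusted p = 0.229), and the arrays ranged from 0.39 to 1.52 with hydroxyurea and from 0.84 to 1.71 with saline. A p of that size does not show that the 2 hydrolase genes behaved alike. The dimmer Ephx1 probe, which rose by 1.4 on its own, was not set against Ephx2.

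**Figure D3:**
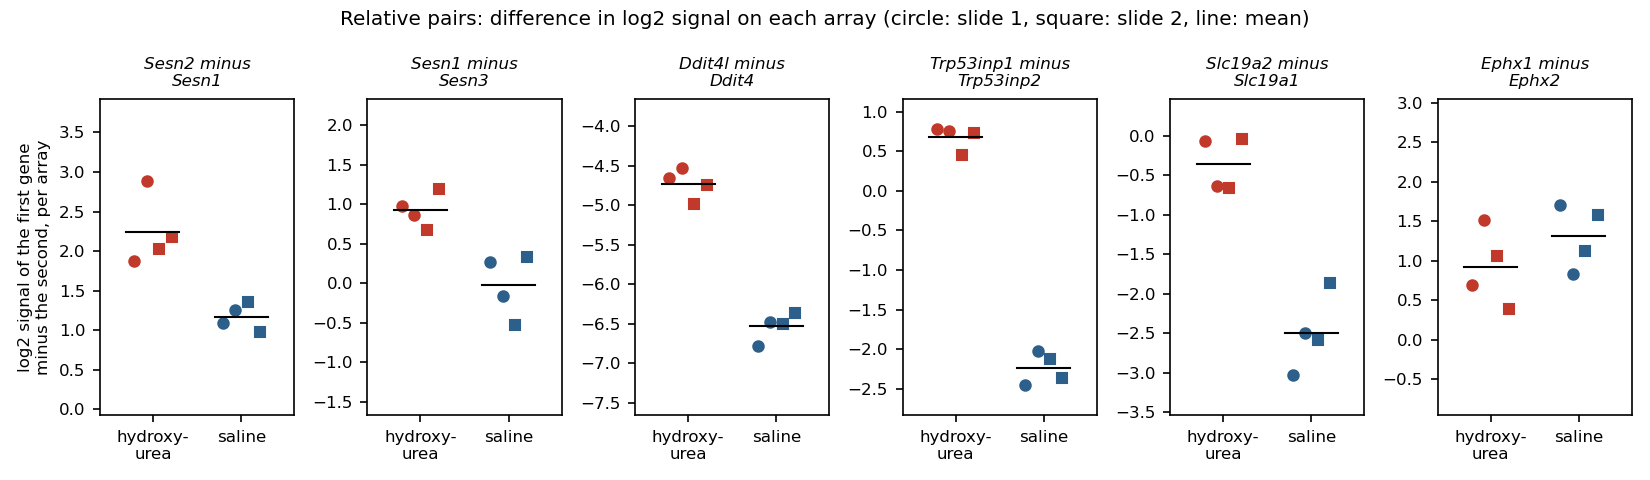
Log2 signal of the first gene minus that of the second on each array, with hydroxyurea on the left and saline on the right. Circles are slide 1, squares slide 2 and lines are group means, and each panel spans the same 4 log2 units. Groups are apart in 5 panels and overlap for the brighter Ephx1 probe and Ephx2.

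Of the wider set of relatives, which also holds the Gdf15 receptor genes, 13 of 16 were measured and 2 passed. Ephx4, an epoxide hydrolase gene, rose by 0.92 ± 0.16 (SE, adjusted p = 0.014) but gave 0.34 with normexp and then did not pass. Ephx3, of the same family, fell by 0.77 ± 0.15 (adjusted p = 0.02). It kept its call in 2 of the 8 fits without 1 array, those without hydroxyurea 2 and without saline 3, and it lost it with median centring. The median over these relatives was 0.24. The receptor gene Gfral did not pass the filter on dim signals, and its partner Ret had a difference of 0.5 (adjusted p = 0.27).

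The pathways on which the 10 genes act were then examined through lists of their known components. The counts for these lists come from fits with every array, and counts without hydroxyurea 2 were not made. On simulated data the same fit called 37 of 100 genes changed by 1 log2 unit and 90 of 100 changed by 2. A gene that did not pass may therefore have changed. Of 32 measured genes of the mTOR complexes and their direct regulators 0 passed in either direction with limma, 2 were higher and 4 lower at an unadjusted p of 0.05, and their median difference was 0.01. The lowest p belonged to Rragd, a Rag GTPase gene (-1.06 ± 0.28, adjusted p = 0.06), and with normexp 1 gene of the list was called higher. Among genes that did not pass, Mtor itself stood at 0.15, Tsc2 at -0.17, Tsc1 at 0.77 (adjusted p = 0.087) and Deptor at -0.73 (adjusted p = 0.12). Of 13 genes of the GATOR complexes and amino acid sensing 0 passed with limma and 1 was higher at an unadjusted p of 0.05 (median 0.03), with the lowest p for Nprl3, a GATOR1 subunit gene (0.34 ± 0.13, adjusted p = 0.14). Of 14 genes of AMPK and its activator LKB1 0 passed with limma, and 1 was higher and 1 lower at an unadjusted p of 0.05 (median 0.15), with the lowest p for Stk11, the LKB1 gene (-0.44 ± 0.14, adjusted p = 0.09).

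Of 35 measured genes of the autophagy machinery 1 rose and 0 fell, with a median of 0.11. At an unadjusted p of 0.05, 6 were higher (15.6% of named genes) and 1 lower (8.45% of named genes). With quantile normalization 3 were higher and 1 lower. The gene that rose was Atg16l2, a relative of the ATG16L1 gene whose product helps to attach lipid to LC3. Its difference was 1.22 ± 0.22 (SE, adjusted p = 0.014), and its second probe had 0.98 and passed as well. The call was lost without hydroxyurea 4 (adjusted p = 0.051). Ulk1, the kinase gene that starts autophagy and is inhibited by mTOR complex 1, stood at 0.5 (adjusted p = 0.15). Of 18 genes of autophagy receptors and the lysosome 0 rose and 1 fell (median 0.07), and 2 were higher and 1 lower at an unadjusted p of 0.05. The fall was in Calcoco1, an autophagy receptor gene (-0.86 ± 0.15, adjusted p = 0.012), and it did not pass with median centring (adjusted p = 0.075).

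Among glycolytic genes and those that set fructose 2,6-bisphosphate, 2 of 21 measured rose and 0 fell (median 0.22). The counts were the same at an unadjusted p of 0.05, and with normexp or median centring 1 was higher. Hk1, a hexokinase gene, had 1.03 ± 0.18 (SE, adjusted p = 0.013), but its other probe gave 0.18, and with the mean of its probes it did not pass (0.61, adjusted p = 0.091). Pfkfb1, of the family that makes the metabolite TIGAR removes, had 0.68 ± 0.15 (adjusted p = 0.034), a call kept in only 1 of the 8 fits without 1 array, that without hydroxyurea 2. Of the 8 genes of the pentose phosphate pathway 0 passed with limma and 1 was higher at an unadjusted p of 0.05 (median 0.03), and the lowest p was that of Rpe, an epimerase gene (0.56 ± 0.22, adjusted p = 0.16). Of 10 measured genes that handle or use thiamine 0 passed with limma and 1 was higher at an unadjusted p of 0.05 (median -0.03), with Hacl1, a lyase gene, at 0.38 ± 0.17 (adjusted p = 0.2).

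Other reported p53 targets of metabolism had 5 of 18 measured genes higher and 0 lower (27.8% higher), with a median of 0.44. Lpin1, the lipin gene of lipid synthesis and fat oxidation, stood at -1.39, -1.06, -1.56 and -1.27 on the hydroxyurea arrays, against -3.11, -3.37, -3.13 and -2.78 on the saline arrays. It rose 3.43-fold (1.78 ± 0.18, adjusted p = 0.00095), and the difference was 0.98 with normexp, where it still passed. Aldh4a1, of proline breakdown, rose by 1.03 ± 0.15 (adjusted p = 0.0056). Cpt1c, a carnitine palmitoyltransferase gene, rose by 1.43 ± 0.31 (adjusted p = 0.028), while its second probe had 1.47 and passed as well. Acad11, of fatty acid oxidation, and Fuca1, a lysosomal fucosidase gene, were at 0.66 (adjusted p = 0.042) and 0.58 (0.043). The calls of Lpin1 and Aldh4a1 held in 8 of 8 fits without 1 array, that of Cpt1c in 3 (without hydroxyurea 2, hydroxyurea 3 or saline 1), and those of Acad11 and Fuca1 in 1 each, without hydroxyurea 2. With median centring, or with the slide as a block, 3 of the 18 passed. Gls2, of glutamine use, did not pass (0.52, adjusted p = 0.099).

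**Figure D4:**
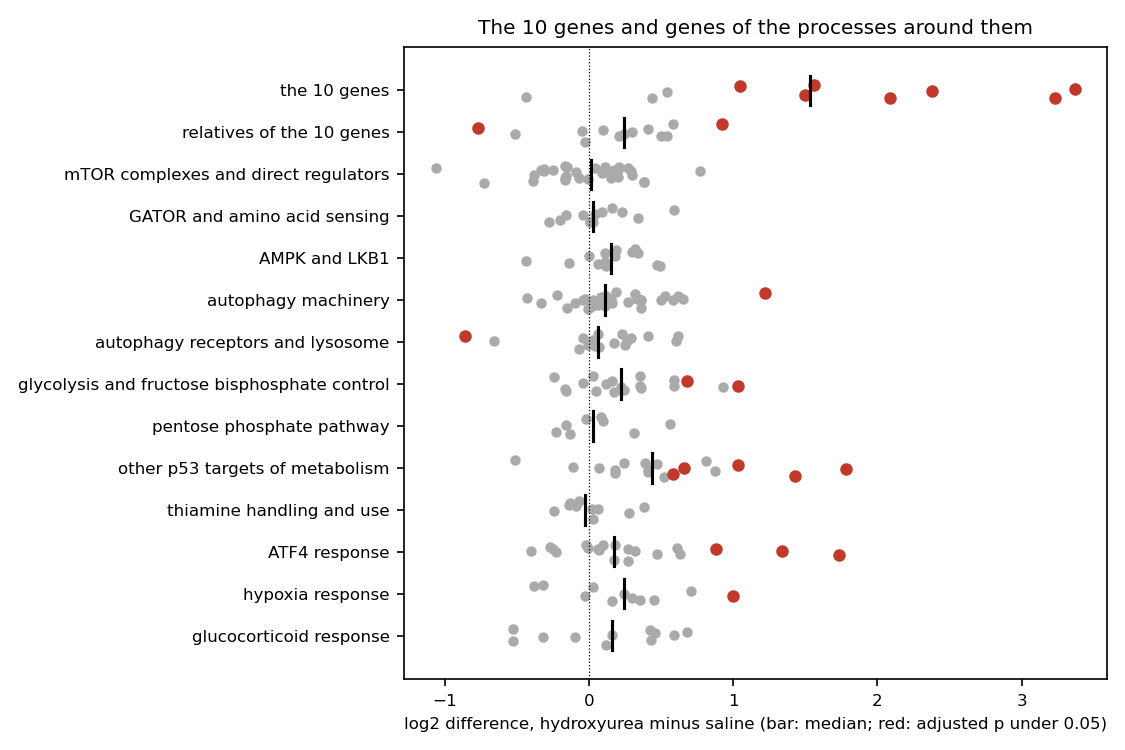
Log2 difference, hydroxyurea minus saline, of each measured gene, in 1 row for the 10 genes and 1 for each list around them. Red points passed an adjusted p of 0.05, grey points did not and bars are medians. The 3 lists of tissue markers are not drawn. The median is 1.53 for the 10 genes and between -0.03 and 0.44 for the lists drawn.

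Genes with a like profile were sought by the root mean square distance between log2 profiles over the 8 arrays, each centred on its own mean. For Trp53inp1 the nearest named genes were Ccng1 (distance 0.18) and Phlda3 (0.19), and for Ddit4l they were Fas (0.24) and Trp53inp1 (0.25). Ddit4 lay nearest to Bbc3 (0.1) and Srsf12 (0.13), and Sesn2 to Aldh1l1 and Ddias (0.19 each). Slc19a2 lay nearest to Tnfrsf10b (0.25) and Insyn2a (0.26), Ak1 to Tmbim1 and Plpbp (0.09 each), and Gdf15 to Dcxr (0.38) and Cgref1 (0.41). The measure favours genes with a change of the same size, and the neighbours of Gdf15 were the most distant of these 7 genes'.

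**Figure D5:**
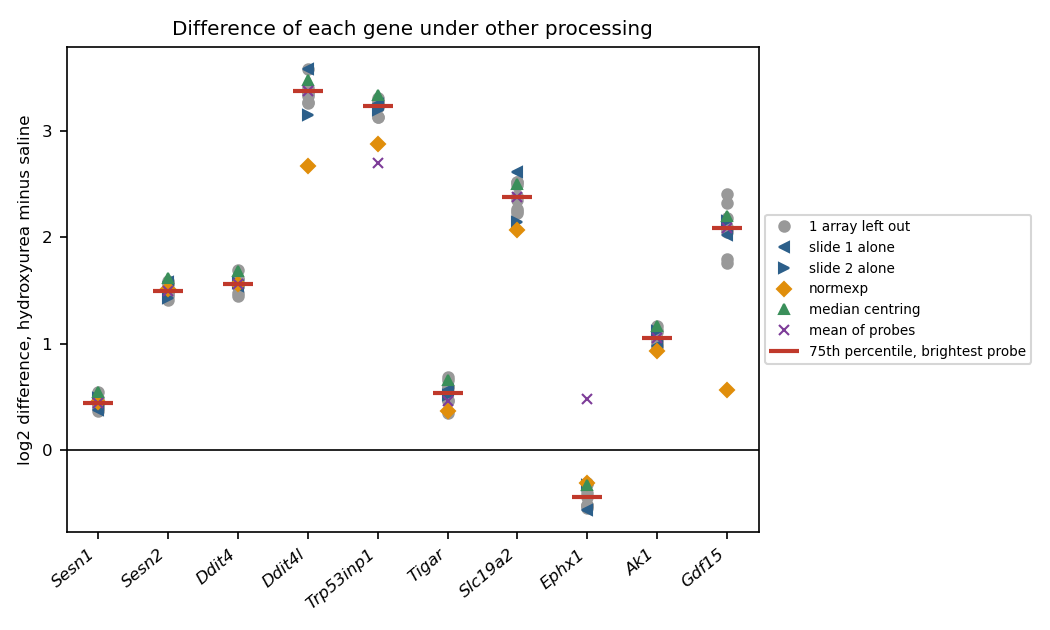
Log2 difference, hydroxyurea minus saline, of each of the 10 genes, with the red bar as reported in the text. The alternatives drawn are the fits without 1 array, each slide alone, normexp, median centring and the mean of probes. Gdf15 moves most, to 0.57 with normexp, and Ephx1 crosses 0, to 0.48, with the mean of its probes.

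The authors' deposited table lists 1346 probes as differentially expressed, among them 8 of the 13 probes, of 7 of the 10 genes. In the authors' deposited table the means of hydroxyurea minus saline were 3.36 for Ddit4l, 3.22 and 2.18 for the Trp53inp1 probes, 2.37 for Slc19a2, 1.55 for Ddit4, 1.5 for Sesn2 and 1.05 for Ak1. For Ephx1 the authors' deposited table holds only the dimmer probe, at 1.39. Gdf15, Sesn1, Tigar and the brighter Ephx1 probe are not listed in the authors' deposited table.

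Markers of whole embryos, from Sox2 of the neural plate to the embryonic globins, were well above background on all 8 arrays for 16 of 16 genes, with a summed linear signal of 1490 to 2520 times the 75th percentile in hydroxyurea embryos and 1540 to 2310 in saline embryos. Of these 0 passed with limma, 5 of 16 were lower at an unadjusted p of 0.05 where 8.45% of named genes were, and 2 were called lower with normexp and 1 with quantile normalization, with the lowest p for Sox2 (-0.51 ± 0.15, adjusted p = 0.076). Markers of the yolk sac endoderm were well above background on all arrays for 7 of 10 genes, and their sum was 16.3 to 91.5 with hydroxyurea and 19.7 to 283 with saline. Their median log2 difference was -1.14, and 0 of 10 passed with limma, also at an unadjusted p of 0.05. Trophoblast and decidua markers summed to 25.1 to 75.1 with hydroxyurea and to 3.26 to 33.4 with saline, with a median difference of 1.11 and with 3 of 9 (Tpbpa, Psg16 and Prl3c1) well above background on no array. Of the 6 measured 1 was higher, Ascl2, at 0.91 (adjusted p = 0.03), and it kept its call in 2 of 8 fits without 1 array, those without hydroxyurea 2 and hydroxyurea 3. The part of these tissues in the differences of the 10 genes was not tested.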

How the data were processed

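The deposited scanner files hold Cy3 intensity values from Agilent Feature Extraction 11.5.1.1, per the submitters' processing notes and the file headers, background-subtracted by the authors and not scaled between arrays. The authors' deposited table holds log2 values with the header "Normalized signal intensity". From the values they are centred on each probe's median, and no source used here states their normalization or test. The number of arrays limits precision.

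Outlier spots (151 to 315 per array) were left out, log2 processed signals averaged per probe, and each array's 75th percentile subtracted. Probes well above background on at least 4 of 8 arrays with a value on all 8 were kept (30677), and the brightest stood for its gene (23121 features, 14631 named). Accessions were matched to RefSeq symbols of GRCm38.p6, for 26582 of 55681 probes. Group differences came from limma 3.58.1 under R 4.3.3 (lmFit, eBayes, two-sided, Benjamini-Hochberg over all features) and the steps tested on simulated data. Permutation tests used scipy 1.17.1, and 1 of the 7 pairs tested is not reported here.

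The 10 genes, the 16 lists (269 genes, 254 measured) and the tests were chosen with earlier results of these data known. Named are the 10 genes, per list the 3 called genes with the lowest p or else the 1 lowest, the relatives, and the 2 nearest profiles. Other genes were named after their values were seen: Acad11, Fuca1, Gls2, Mtor, Tsc1, Tsc2, Deptor, Ulk1, Atf4, Ddit3, Asns, Ankrd37, Vegfa, Slc2a1, Tsc22d3, Slc19a3, Gfral and Ret. Normexp used the median spot signal with an offset of 50, since the files hold no mean signal column.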

Additional observations from a re-analysis of the deposited data

Results flagged for a closer look

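In 80 groups of 4 arrays, for the 13 probes and the other genes named by rule, 5 held an array far from the other 3, about the 1 in 20 that chance gives. In the saline group Ddit4 stood at 4.45 on saline 1, with the others at 4.25 to 4.26, and Trp53inp2 stood at 2.71 on saline 4, with the others at 2.18 to 2.26. In the hydroxyurea group Ephx4 stood at -2.4 on hydroxyurea 3 (others -2.74 to -2.7), Sox2 at 1.99 on hydroxyurea 3 (others 1.53 to 1.58) and Ephx2 at -2.04 on hydroxyurea 2 (others -1.66 to -1.6).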

How the results depend on the processing

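Of the 10 genes 7 were called higher, and 6 to 8 in the fits that left out 1 array. The count was also 6 to 8 with normexp, quantile normalization, median centring, no filter, a filter on all 8 arrays, the mean of probes, every probe or a block. On slide 1 alone it was 2 and on slide 2 alone 0, with 2 arrays per group. Over all features 1429 were called, 615 with no filter, 59 on slide 1 alone, 3 on slide 2 alone and 524 (without hydroxyurea 4) to 3739 (without hydroxyurea 2) in fits without 1 array, and leaving out hydroxyurea 1, saline 1, saline 2, saline 3 or saline 4 also moved the count by over 1.5 times. The cause was not tested. The difference of Ephx1 was 0.48 with the mean of its probes, which have opposite signs. Over the alternatives the log2 differences ranged from 2.67 to 3.58 for Ddit4l, 2.7 to 3.34 for Trp53inp1, 2.07 to 2.61 for Slc19a2, 0.57 to 2.41 for Gdf15, 1.45 to 1.69 for Ddit4, 1.41 to 1.62 for Sesn2 and 0.93 to 1.17 for Ak1. Median centring put the median of all features at 0.158, against 0.0398 with the 75th percentile, so each difference is relative to the scaling. Without 1 array 0 relative pairs could pass, since 4 against 3 arrays cannot reach the threshold, and the 5 of 6 described above also passed with normexp, quantile normalization and median centring. Counts for the lists were within 1.5 times in 112 of 128 cases. These cases cover quantile normalization, normexp, median centring and the slide as a block, and no fit without 1 array. Most of the list counts were 0 to begin with, so the share says little about the lists with calls. Normexp was chosen after the data were seen in the form used here, and the planned form on the mean signal was not run. No paired analysis was possible because the labels give no replicate numbers, other than by position: with the 1 hydroxyurea and 1 saline array in a row of a slide as a block, the same 7 genes and 1211 features were called, and Pfkfb1, Cpt1c, Nupr1, Ascl2, Acad11 and Fuca1 lost their calls. Signal near background limits Gdf15.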

Other observations

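Ddit4, Sesn2 and Gdf15 are also known targets of other stress pathways, and genes of those pathways were listed beside them. Of 20 measured genes of the ATF4 response 3 were higher and 0 lower in hydroxyurea embryos (median log2 difference 0.18). Chac1, which breaks down glutathione, stood at 0.35, -0.31, -0.48 and 0.24 on the hydroxyurea arrays, against -2.04, -1.67, -1.41 and -1.99 on the saline arrays. It rose 3.32-fold (1.73 ± 0.23, SE, adjusted p = 0.0044). Trib3, a pseudokinase gene, rose by 1.34 ± 0.21 (adjusted p = 0.0076), and both calls held without any 1 of the 8 arrays. Nupr1, a stress-induced nuclear protein gene, was at 0.88 ± 0.21 (adjusted p = 0.04), but kept its call in only 2 of the 8 such fits, those without hydroxyurea 2 and saline 4. It did not pass with normexp (0.48) or with the slide or the array pairs of a slide row as a block, and 2 genes of the list were called with normexp or the slide as a block. Atf4 itself stood at -0.02, Ddit3 at 0.32 and the asparagine synthetase gene Asns at 0.27, and none of these passed.

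Of 11 measured genes of the hypoxia response 1 was higher, Bhlhe40, a repressor gene, at 1 ± 0.15 (SE, adjusted p = 0.0071), or 0.54 with normexp, where it still passed. The median of the hypoxia genes was 0.24, and at an unadjusted p of 0.05 3 were higher and 0 lower. Of those that did not pass, Ankrd37 stood at 0.71 (adjusted p = 0.057), Vegfa at 0.03 and Slc2a1 at -0.32. Of 11 glucocorticoid response genes 0 passed with limma and 3 were higher at an unadjusted p of 0.05 (median 0.16). The lowest p was that of Cebpd (0.59 ± 0.15, adjusted p = 0.052), and Tsc22d3 stood at 0.68 (adjusted p = 0.1). Quantile normalization or normexp each gave 2 higher hypoxia genes and 1 higher glucocorticoid gene.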
